A study of Mus musculus with 4 samples.

Results

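Under the AGO2 clusters of newborn mouse brain, 3' UTR regions were selected that hold a match to the seed of the let-7 miRNA family. A region was a member if its midpoint lay in a 3' UTR of mm10 (GENCODE vM21, same strand, no coding sequence there) and if the region, extended by 25 bases on each side, held the letters CTACCTC on the transcript strand. These letters pair with let-7 positions 2 to 8 (a 7mer-m8 match), and the same letters followed by A make an 8mer. In the Fmr1 knockout-labelled library 298 of 10567 3' UTR clusters were members, out of 86106 clusters in all. In the wild-type library 232 of 8532 were members, out of 46860. The table of the whole series, which sets the 2 immunoprecipitates (IPs) against each other, held 232 of 8532, out of 46862 regions, and these were the same regions as in the wild-type library. Members were 2.82% of the knockout-labelled and 2.72% of the wild-type 3' UTR clusters. The selection used the position and letters of each region and not its scores.

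The study crosslinked AGO2 to RNA and immunoprecipitated it (eCLIP) from whole brains that had been frozen, taken from C57BL/6 pups at postnatal day 0. The groups are Fmr1 knockout and wild type, each with an AGO2 IP and an input, and so with 1 IP library per genotype. The allele and the number of animals behind a library are not given in the sources used here. AGO2 clusters lay on exons of Fmr1, which encodes the RNA-binding protein FMRP, in both libraries: 5 clusters with 28 IP reads in the library labelled knockout, against 2 clusters with 9 IP reads in wild type. That library is therefore called knockout-labelled.

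The let-7 family is among the most abundant miRNA families of differentiating neural tissue, and its members share a seed. AGO2 holds the miRNA and presents the seed to the 3' UTRs of target mRNAs, which are then repressed or degraded. The RNA-binding proteins LIN28A and LIN28B block the maturation of let-7, and their own mRNAs are let-7 targets, so the family is known as a switch between growth and differentiation.

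The mature miRNAs are shown with the seed, bases 2 to 8, in capitals (RefSeq, GRCm38.p6). Of the 11 mouse let-7 and miR-98 sequences in that table, 10 share this seed. The last one printed here, let-7j, has another letter at position 8 and was not used.
let-7a-5p: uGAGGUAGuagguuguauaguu
let-7b-5p: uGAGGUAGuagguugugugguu
let-7e-5p: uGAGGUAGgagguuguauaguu
let-7f-5p: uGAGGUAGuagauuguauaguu
let-7i-5p: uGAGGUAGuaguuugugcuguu
miR-98-5p: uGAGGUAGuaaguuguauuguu
let-7j: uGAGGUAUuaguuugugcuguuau

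The sites under the leading clusters follow, each as 30 bases of mm10 on the transcript strand, with the let-7 match in capitals, and with its last A in capitals where it is an 8mer. They are sites of genes with the highest scores in either library, in both, or between the IPs, and their values are given further on. Every printed site has the same core by selection, and no printed site has the same surrounding letters as another. Some sites of different genes do resemble each other. The letters before the match of Cbx5 are nearly those of Scn8a, which is not printed. Right after the 8mer, Clcn5 shares letters with Khsrp, also not printed. Whether such sites lie in repeats was not tested.
Pias4, chr10:81153643-81153672, minus strand: tcgttttctagccagCTACCTCggtaactc
Runx1t1, chr4:13892733-13892762, plus strand: gcaaaaagtttcactCTACCTCtgacagca
Igdcc4, chr9:65136321-65136350, plus strand: ttcctaacaacatgaCTACCTCAtgtctgc
Sema4c, chr1:36549451-36549480, minus strand: ttgcacaggcaccagCTACCTCAgggacat
Eif4g2, chr7:111072200-111072229, minus strand: atattgcctgtatttCTACCTCtagtaatg
Pbx3, chr2:34171995-34172024, minus strand: tagagcgctcacttaCTACCTCtgaacaat
Cbx5, chr15:103192953-103192982, minus strand: ggtgataatactgacCTACCTCAtggggtg
Hic2, chr16:17262870-17262899, plus strand: ccagggacccctcccCTACCTCAccttgct
E2f6, chr12:16826403-16826432, plus strand: atcacctagcgctctCTACCTCAgtgggta
Zfp697, chr3:98430907-98430936, plus strand: ttttgaaatgcacatCTACCTCttccctgt
Dcx, chrX:143860751-143860780, minus strand: atatgttgcttgttcCTACCTCctgactgt
Pld3, chr7:27532152-27532181, minus strand: actatactcctgctgCTACCTCcaccgcca
Pgm2l1, chr7:100276362-100276391, plus strand: cccacctttcctgctCTACCTCcctcctcc
Mcf2l, chr8:13018331-13018360, plus strand: atgacctatgtgttcCTACCTCAgacatgt
Utrn, chr10:12382611-12382640, minus strand: gccatgatcacctttCTACCTCAgaaccac
Rbms1, chr2:60751076-60751105, minus strand: tacgtgatcagttatCTACCTCAgaggcta
Socs1, chr16:10783957-10783986, minus strand: acctgaattccactcCTACCTCtccatgtt
Clcn5, chrX:7154054-7154083, minus strand: tgtaaattgccctacCTACCTCAcagggtt
Wnt9a, chr11:59333405-59333434, plus strand: cagcctgtgatttctCTACCTCAactgtgt
Chp1, chr2:119585557-119585586, plus strand: tgtgtctgttacttcCTACCTCtcagtcat

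In all, 370 distinct let-7 matches in 338 genes lay under clusters. Of these, 154 lay under clusters of both libraries, 143 under knockout-labelled clusters only and 73 under wild-type clusters only. The match was an 8mer in 154 of the 370, or 41.6%, against 31.5% of the 2161 matches in the longest 3' UTRs of all genes. A gene usually had 1 match under clusters: 314 genes had 1, 22 had 2, and 2 genes had more. Nudt12, a NADH pyrophosphatase, had 7 matches and Mcf2l, a guanine nucleotide exchange factor, had 5.

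The matches sat at the middle of the clusters. In enriched 3' UTR clusters of the knockout-labelled library, there were 30.9 matches per 1000 clusters and 20 bases within 20 bases of the midpoint, against 3.35 at 81 to 180 bases. In enriched clusters of the wild-type library the densities were 16.0 near the midpoint and 1.63 farther out. Clusters that were not enriched had lower peaks, of 8.58 in the knockout-labelled library and 7.76 in wild type, over 1.43 and 1.79 farther out. The same letters in reverse order, CTCCATC, had densities of 2.09 near the midpoint and 1.99 farther out in enriched knockout-labelled clusters, and of 2.36 and 2.29 in enriched wild-type clusters. In clusters that were not enriched they had 3.43 near and 2.24 farther out in the knockout-labelled library, and 2.24 and 2.47 in wild type. The match was inside the cluster itself, without extension, in 232 of 298 knockout-labelled and 178 of 232 wild-type members.

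**Figure D1:**
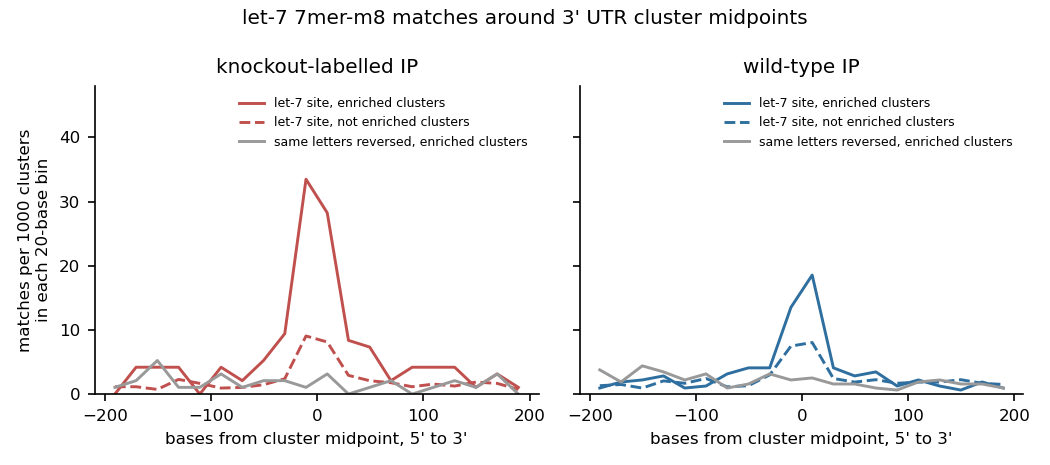
let-7 matches per 1000 3' UTR clusters in each 20-base bin (vertical axis) against the distance from the cluster midpoint in bases (horizontal axis), knockout-labelled IP on the left and wild-type IP on the right. Solid coloured lines are enriched clusters, dashed lines clusters that were not enriched, and grey lines the same letters reversed in enriched clusters; the coloured lines rise at the midpoint and the grey lines stay low.

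Members lay throughout the 3' UTR. The midpoint was at a median of 48.7% of the 3' UTR length from the stop codon in the knockout-labelled library and at 50.2% in wild type. Sema4c lay near the start, 80 and 77 bases after the stop codon in the knockout-labelled and the wild-type cluster. Cbx5 lay far down its 3' UTR, 6695 bases after the stop codon of a 3' UTR of 8100 bases.

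A cluster counted as enriched over its input when the authors' deposited -log10 p and log2 of IP over input were both at least 3. In the knockout-labelled library, 82 of 298 let-7 clusters passed, or 27.5% (exact 95% interval 22.5 to 33.0), against 8.51% of 3' UTR clusters without a match, 9.05% of all 3' UTR clusters and 3.08% of all clusters. In the wild-type library, 131 of 232 let-7 clusters passed, or 56.5% (49.8 to 62.9), against 36.8% without a match, 37.3% of all 3' UTR clusters and 24.1% of all clusters. The shares of the 2 libraries cannot be set against each other. With 1 listed input read it took 9 IP reads to pass in the knockout-labelled library and 5 in wild type. The inputs were 1.92 times as deep as the IP in the knockout-labelled pair and 6.34 times in the wild-type pair. All intervals here cover counting error alone, and a p compares the reads of 2 libraries, not the genotypes.

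At like numbers of reads the shares were compared as well. Among knockout-labelled clusters of 10 to 19 IP reads, 90.0% of 60 let-7 clusters passed (79.5 to 96.2), against 61.9% of 822 without a match (58.5 to 65.3). At 6 to 9 reads it was 13.0% of 69 (6.14 to 23.3) against 6.50% of 1831 (5.41 to 7.73), and at 20 or more 90.5% of 21 (69.6 to 98.8) against 67.3% of 364 (62.2 to 72.1). The intervals stand apart at 10 to 19 reads and overlap in the other 2 classes, and at 3 to 5 reads no cluster passed. In wild type 36.4% of 66 let-7 clusters of 4 to 5 reads passed (24.9 to 49.1), against 33.8% of 2657 without a match (32.0 to 35.6). At 6 to 9 reads it was 100% of 56 (93.6 to 100) against 94.0% of 1472 (92.7 to 95.2), and at 10 to 19 reads 100% of 38 (90.7 to 100) against 90.5% of 632 (87.9 to 92.7). At 20 or more it was 92.9% of 14 (66.1 to 99.8) against 86.4% of 228 (81.3 to 90.6). The intervals overlap in all 4 wild-type classes, and at 3 reads no cluster passed. Over all members the median log2 of IP over input was 2.94 with a match and 2.52 without in the knockout-labelled library, and 4.66 and 4.25 in wild type. The median let-7 cluster had 6 IP reads in the knockout-labelled library and 5 in wild type, against 4 without a match in each. Seen the other way, 8.58% of the 956 enriched knockout-labelled 3' UTR clusters held a let-7 match, against 2.25% of the others. Of the 3182 enriched wild-type clusters 4.12% held one, against 1.89% of the others.

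The kind of match did not order the shares alike in the 2 libraries. In the knockout-labelled library 33.9% of clusters with an 8mer passed (25.7 to 42.8), against 22.8% of those with a 7mer-m8 not followed by A (16.7 to 29.8). In wild type 50.5% with an 8mer passed (40.2 to 60.8), against 60.7% without the A (52.0 to 69.0). In each library the 2 intervals overlap. Clusters that also held a 7mer-m8 match of another family searched passed in 20 of 44 cases, or 45.5% (30.4 to 61.2), in the knockout-labelled library, against 24.4% of the other let-7 clusters (19.3 to 30.2). In wild type it was 27 of 35, or 77.1% (59.9 to 89.6), against 52.8% (45.6 to 59.9). Those clusters were longer, with a median of 61.5 against 49 bases in the knockout-labelled library and of 56 against 43 in wild type. They also had more reads, with 10 or more IP reads in 43.2% against 24.4% and in 37.1% against 19.8%. The part of length and reads in the difference was not tested. The other families were miR-9 (ACCAAAG), miR-15 (TGCTGCT), miR-30 (TGTTTAC), miR-17/20 (GCACTTT), miR-125 (CTCAGGG), miR-26 (TACTTGA), miR-128 (CACTGTG), miR-29 (TGGTGCT), miR-181 (TGAATGT) and miR-138 (CACCAGC). Clusters with a match of these families passed in 8.63 to 19.3% of cases in the knockout-labelled library and in 36.4 to 53.3% in wild type. The letters of miR-125 can share bases with a let-7 8mer, as in the printed Sema4c site, and those of miR-128 can as well. Matches of miR-125 were in 8 let-7 clusters of each library. Some second matches are thus not separate sites, and the part of this overlap in the difference was not tested.

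**Figure D2:**
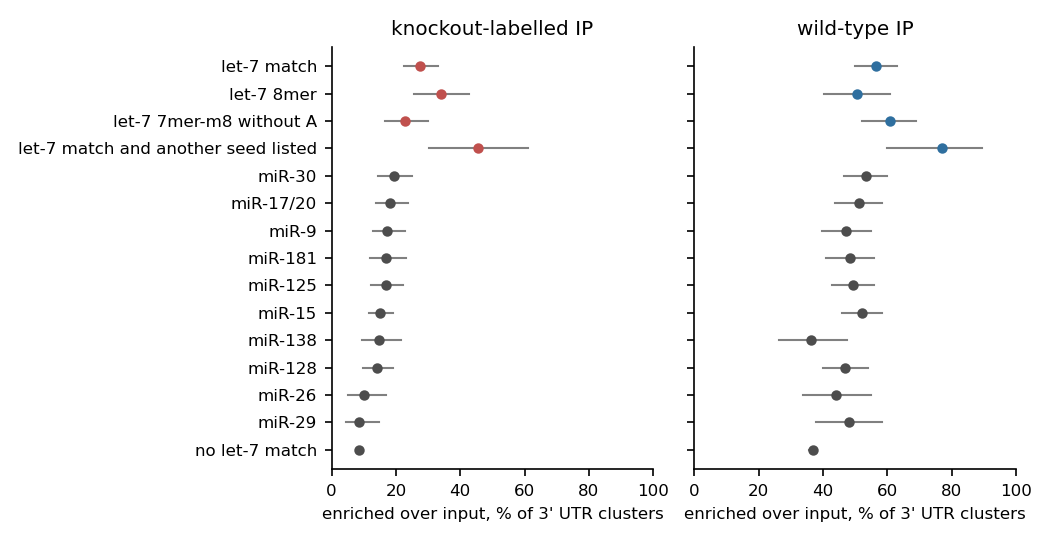
Share of 3' UTR clusters enriched over input, in percent (horizontal axis), for clusters with each kind of seed match (vertical axis), knockout-labelled IP on the left and wild-type IP on the right. Points are shares, lines exact 95% binomial intervals, and coloured points hold a let-7 match; the let-7 share is 27.5% and 56.5%, against 8.51% and 36.8% without a match.

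Runx1t1, a transcriptional corepressor, had 58 IP and 4 input reads in the knockout-labelled library, and 59 IP and 6 input reads in wild type. Its log2 over input was 4.80 in the knockout-labelled library and 5.96 in wild type, with counting intervals of 3.36 to 6.72 and of 4.75 to 7.46. Both IPs had nearly the same number of reads there, and the match is followed by a t in the printed site.

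Igdcc4, a transmembrane protein of the immunoglobulin superfamily, had 50 IP and at most 1 input read in the knockout-labelled library, against 42 and 3 in wild type. A listed input of 1 can be a 0, since the authors' values appear to hold 1 read added to the denominator. Between the IPs, a wild-type region inside a knockout-labelled cluster could list more knockout-labelled reads than that cluster. Cbx5 listed 32 against 31, and Pag1 14 against 13. Input counts, and knockout-labelled counts set against wild-type ones, can thus be 1 too high throughout. The log2 over input of Igdcc4 was 6.58 in the knockout-labelled and 6.47 in the wild-type library, the match being an 8mer. Its relative Igdcc3 had 2 knockout-labelled clusters of 18 and 12 IP reads and 2 wild-type clusters of 9 and 18, and all 4 were enriched.

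Sema4c, a transmembrane semaphorin, had 46 IP and 2 input reads in the knockout-labelled library and 24 IP and at most 1 input read in wild type. The log2 over input was 5.46 and 7.25, and its 8mer lay within 2 bases of either midpoint. Eif4g2, a relative of the translation initiation factor eIF4G, had 48 IP and 4 input reads in the knockout-labelled library against 32 and 2 in wild type. Both libraries passed there, with log2 values of 4.52 and 6.66.

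Pias4, a SUMO E3 ligase, had the highest score of the knockout-labelled library: 54 IP reads against at most 1 input read, at a log2 over input of 6.69 and a -log10 p of 23.6. In wild type it had 21 IP and 2 input reads and a log2 of 6.06. The match lies at the border of 2 abutting knockout-labelled clusters, so it counts for both, and the second had 34 IP reads.

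Among transcription factors, Pbx3, a TALE homeodomain protein, had a knockout-labelled cluster of 35 IP and 2 input reads (log2 5.07). The wild-type cluster that overlapped it with the higher score had 20 IP reads and at most 1 input read (log2 6.99), and a neighbouring wild-type cluster nearer the match had 6 IP reads. Hic2, a zinc finger repressor, had 31 and 25 IP reads by the same 8mer in the knockout-labelled and the wild-type library, each against at most 1 input read. That 8mer lies inside the knockout-labelled cluster but outside the wild-type one, which is a member through its extension. E2f6, the repressor of the E2F family, had 29 IP and at most 1 input read in the knockout-labelled library, against 11 and 3 in wild type. Its log2 over input was 5.80 and 4.54, so like Pias4 it was higher over input in the knockout-labelled library. Cbx5, which encodes the heterochromatin protein HP1 alpha, had 31 IP reads in the knockout-labelled library and 6 in wild type, each against at most 1 input read. Zfp697, a zinc finger protein, had 28 IP reads in the knockout-labelled library and 13 in wild type.

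Further genes enriched in overlapping clusters of both were Ankrd52, a regulatory subunit of protein phosphatase 6, Utrn (utrophin), Rbms1, an RNA-binding protein, and Mcf2l. Ankrd52 had 26 IP reads in the knockout-labelled library and 19 in wild type, Utrn 24 and 21, and Rbms1 25 and 14. Mcf2l carried 5 8mers in a row, spaced 26 to 43 bases apart, with nearly the same letters around each, as in a repeat. They lay under 2 abutting knockout-labelled clusters of 24 and 22 IP reads and under a single wild-type cluster of 23. None of these clusters had more than 2 input reads. The matches of Nudt12 were mostly 6 bases apart, in a simple repeat, and its clusters were weak: 6 IP and 3 input reads in the knockout-labelled library, not enriched, and 8 and 4 in wild type, enriched. Reads that could map to several copies of a repeat were not examined for Mcf2l or Nudt12.

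Of the wild-type library's 10 leading genes, Dcx, Pld3, Pgm2l1, Mcf2l and Utrn were not among the leading 10 of the other. Dcx encodes doublecortin, the microtubule-binding protein of migrating neurons. Its cluster had 69 IP and 35 input reads in the knockout-labelled library, against 55 IP and 5 input reads in wild type. The log2 over input was 1.92 (1.31 to 2.55), below the limit, against 6.12 (4.81 to 7.80). The IP reads were alike, while the input reads were 35 and 5 although the depth of the knockout-labelled input was 0.690 of the wild-type input's. The cause was not tested. Pld3, an endolysosomal member of the phospholipase D family, had 17 IP reads in the knockout-labelled library and 26 in wild type, each against at most 1 input read. Pgm2l1, a glucose-1,6-bisphosphate synthase, had 21 IP and 4 input reads in the knockout-labelled library and 27 and 3 in wild type. Both genes passed in both libraries.

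**Figure D3:**
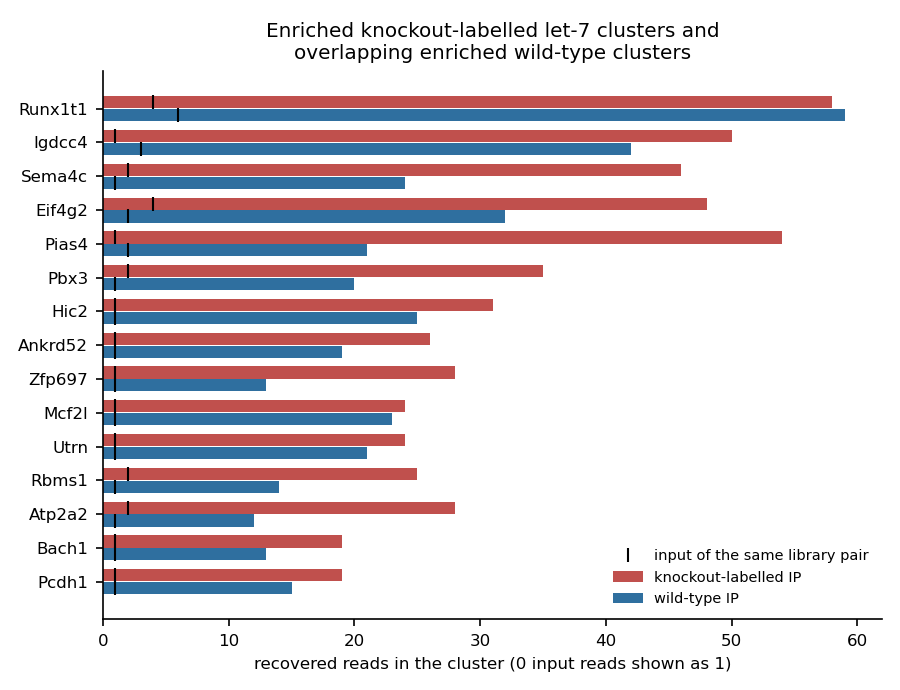
Recovered IP reads (bars) and input reads (black ticks) in enriched knockout-labelled let-7 clusters and the enriched wild-type clusters that overlap them, for the 15 genes that score highest by the lower of their -log10 p values, the knockout-labelled library above wild type in each pair. The wild-type clusters of Pbx3 and Ankrd52 are not members themselves, since the match lies outside their window. The knockout-labelled bar is the longer one except for Runx1t1, with 58 against 59 reads; that IP was 2.28 times as deep as wild type.

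An enriched let-7 cluster was found in 76 genes of the knockout-labelled library and in 122 of wild type, 147 genes in all, of which 51 had one in both. The 51 were 4931428F04Rik, AU022252, Arid3a, Armc2, Atp2a2, Bach1, Cacfd1, Cbx5, Cemip2, Dcun1d2, Dock3, E2f6, Eif4g2, Gla, Hic2, Hif1an, Hs1bp3, Igdcc3, Igdcc4, Itga4, Khsrp, Lin28b, Map3k1, Mapk8ip2, Mcf2l, Pag1, Pbx2, Pbx3, Pcdh1, Pgm2l1, Pias4, Pld3, Pnkd, Rbms1, Rgp1, Runx1t1, Sema4c, Slc12a9, Stox2, Tbc1d24, Tbkbp1, Tet3, Tmod2, Tnfrsf1b, Tor1aip2, Unc5a, Usp32, Utrn, Zfp512b, Zfp697 and Zfp710. In the knockout-labelled library alone, 25 genes passed: AW549877, Ankrd52, Atf6b, Ccdc71l, Ccnj, Dlgap4, Dusp22, Fign, G3bp1, Gigyf1, Kif21b, Nat8l, Nlk, Pcgf3, Pip4k2b, Rnf7, Slk, Spindoc, Strn, Stx17, Tusc2, Vangl2, Xkr8, Yod1 and Zfyve26. In wild type alone, 71 genes passed, among them 6030458C11Rik, Abcc10, Acer3, Adamts15, Akap6, Aqp4, Arih1, BC052040, Bsg, Ccny, Cd276, Chp1, Clcn5, Col1a1, Cry2, Cyp46a1, Dcakd, Dcx, Dhx57, Dot1l, Ercc6, Ezh2, Fignl2, Fnip1, Golt1b, Grpel1, H6pd, Homer2, Kcnc1, Kmt2d, Lrrc58, Mef2d, Ncoa3, Nr6a1, Nras, Nudt12, Palm3, Pdpk1, Pdpr, Pgpep1, Pnmal2, Prlr, Ptprd, Qars, Rab11fip4, Rab3gap2, Rasl10b, Rdx, Scrt2, Skil, Slc31a2, Smcr8, Socs1, Sox13, Spred3, Ssh1, Stk36, Stk40, Syt11, Taok1, Tmem110, Tspan18, Ube2g2, Ulk2, Wnt9a, Yeats4, Zbtb5, Zfp362, Zmat4 and Zswim5. These lists count only clusters with a match in the window. Of the 25, 5 genes (Ankrd52, Atf6b, Nat8l, Spindoc and Stx17) had a member that overlapped an enriched wild-type cluster without a match in its window; for the 71 the same count was 0. Passing in only 1 library does not show a difference between them: 11 of the 25 had a let-7 cluster below the limits in wild type, and 48 of the 71 had one in the knockout-labelled library.

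The genes were next taken by role, with lists chosen with results of these data known. The lists overlap, and the role lists hold let-7 targets of the first list, so their shares are not separate results. Of 72 published or predicted let-7 targets, 54 had a match in the longest 3' UTR and 26 of these, 48.1%, had a let-7 cluster in either library. Over all genes with a match, 328 of 1880 had one, or 17.4%. Restricted to genes with any 3' UTR cluster, the shares were 66.7% of 39 listed targets and 38.5% of 851 genes. An enriched cluster was found in 16 listed targets, 10 in the knockout-labelled library and 14 in wild type, and in 146 of the 1880 genes, or 7.77%. With the most reads were Eif4g2, Hic2 and Igdcc3, described above, and Pbx2, with 25 and 13 IP reads in 2 knockout-labelled clusters and 9 and 4 in 2 wild-type clusters.

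Hmga2, a chromatin protein of growing cells, and Lin28a had 4 and 2 matches in their longest 3' UTRs and no 3' UTR cluster in either library. Trim71 and Igf2bp1, also known as let-7 targets of early development, had 4 matches each and 3' UTR clusters elsewhere: 2 and 1 in the knockout-labelled library and 2 each in wild type. Of the 28 listed targets that had a match and no let-7 cluster, 15 had no 3' UTR cluster at all and 13 had one elsewhere. The files hold no RNA levels, so a missing cluster says nothing on whether the mRNA was present.

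In the list of let-7 processing and silencing, 2 genes of 7 with a match had a let-7 cluster, and both were enriched in both libraries. Over all genes with a match, 17.4% had a let-7 cluster and 7.77% an enriched one. Restricted to genes with any 3' UTR cluster, it was 2 of 5, against 38.5% of all such genes. Lin28b had 11 IP reads against at most 1 input read in the knockout-labelled library (log2 4.40) and 10 against at most 1 in wild type (log2 5.99). Its window also held matches of miR-15 and miR-30. A second knockout-labelled Lin28b cluster, over an 8mer 38 bases after the stop codon, had 6 IP and 2 input reads and was not enriched. Khsrp, an RNA-binding protein that promotes let-7 processing, had 11 IP and 2 input reads in the knockout-labelled library and 6 and at most 1 in wild type.

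In growth signalling and the cell cycle, 8 of 21 genes with a match had a let-7 cluster and 4 an enriched one. All of the 8 but Map3k1 are also in the list of let-7 targets. The shares over all genes with a match were 17.4% and 7.77%. Restricted to genes with any 3' UTR cluster, it was 8 of 15, against 38.5% of all such genes. The small GTPase Nras had 11 IP and 3 input reads in the knockout-labelled library (log2 2.81, below the limit), and 19 IP and at most 1 input read in wild type (log2 6.91). The kinase Map3k1 had 17 and 18 IP reads in the knockout-labelled and the wild-type library and passed in both. Ccnj, cyclin J, had 11 IP reads in the knockout-labelled library, enriched, and 3 in wild type, not enriched.

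Of transcription and chromatin genes, 13 of 25 with a match had a let-7 cluster and 9 an enriched one. Most of the 13, such as Arid3a, Hic2, Pbx2 and Pbx3, are also in the list of let-7 targets. The shares over all genes with a match were 17.4% and 7.77%. Restricted to genes with any 3' UTR cluster, it was 13 of 22, against 38.5% of all such genes. Arid3a passed with 10 IP reads in each library, but at different matches: the enriched clusters lie at chr10:79954718-79954774 in the knockout-labelled library and at chr10:79953871-79953953 in wild type. At each place the other library had a cluster too, of 7 knockout-labelled and 4 wild-type IP reads. Ezh2, the histone methyltransferase of the Polycomb repressive complex PRC2, had 7 IP and 4 input reads in the knockout-labelled library and 9 and 3 in wild type, enriched in wild type only.

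Of axon guidance and cytoskeletal genes, 9 of 15 with a match had a let-7 cluster and 5 an enriched one. The shares over all genes with a match were 17.4% and 7.77%. All 15 had a 3' UTR cluster, and of all genes with a match and such a cluster 38.5% had a let-7 cluster. Unc5a, a netrin receptor, had 11 IP reads in the knockout-labelled library and 8 in wild type, with at most 1 input read in each. Rdx, the membrane linker radixin, had 4 IP and 4 input reads in the knockout-labelled library and 10 IP and at most 1 input read in wild type. Kif21b, a kinesin, was called in the knockout-labelled library, with 13 IP reads, and no wild-type cluster lay within 50 bases.

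In the list of synapse and ion channel genes, 3 of 9 genes with a match had a let-7 cluster and 2 an enriched one. The shares over all genes with a match were 17.4% and 7.77%. Restricted to genes with any 3' UTR cluster, it was 3 of 8, near the 38.5% of all such genes. Syt11 had 7 IP reads in the knockout-labelled library and 6 in wild type, and the potassium channel gene Kcnc1 had 5 and 6, each enriched in wild type only. In the extracellular matrix list 2 of 8 had one, or 2 of the 3 with any 3' UTR cluster, each enriched in wild type only. They were the protease gene Adamts15, with 3 IP reads in the knockout-labelled library and 12 in wild type, and Col1a1, with 3 and 5.

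The libraries were then compared at the same places. Of the 298 knockout-labelled let-7 clusters, 157 overlapped a wild-type cluster by 1 base or more, or 52.7% (46.8 to 58.5), against 24.2% of other 3' UTR clusters. Of the 232 wild-type let-7 clusters, 153 overlapped a knockout-labelled cluster, or 65.9% (59.5 to 72.0), against 32.0% of other ones. With 10 or more IP reads the shares were 88.9% of 81 and 90.4% of 52 members, against 73.8% of 1186 and 82.4% of 860 clusters without a match. For enriched clusters alone, 59 of 82 knockout-labelled members lay on an enriched wild-type cluster, or 72.0%, against 67.5% without a match. Of enriched wild-type members 52 of 131 lay on an enriched knockout-labelled one, or 39.7%, against 20.2%.

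Among the 157 overlapping pairs, in which the wild-type cluster need not be a member itself, 57 pairs in 54 genes were enriched in both libraries. The log2 over input was lower in the knockout-labelled library in 142 of the 157 pairs, with a median knockout-labelled minus wild-type difference of -1.59. The 2486 other 3' UTR pairs had a median of -1.72, lower in 93.2% of pairs. Equal reads in both pairs of libraries give -1.72 by the depth ratios alone. The quartiles of the let-7 pairs, -2.24 and -0.72, overlapped those of the other pairs, -2.40 and -0.97.

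**Figure D4:**
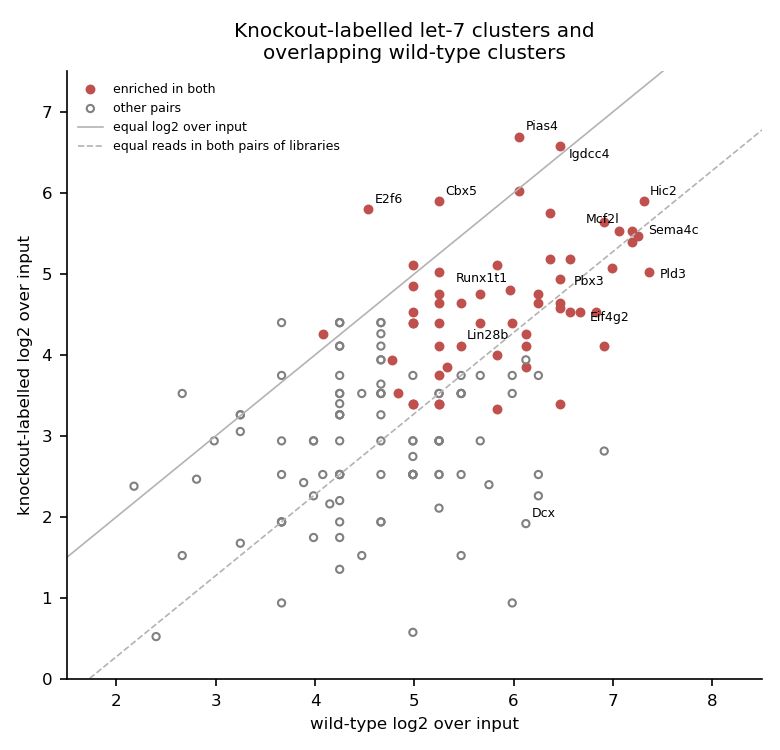
Log2 over input in the knockout-labelled library (vertical axis) against wild type (horizontal axis) for the 157 knockout-labelled let-7 clusters that overlap a wild-type cluster; filled points are the 57 pairs enriched in both. The solid line marks equal log2 values and the dashed line equal reads in both pairs of libraries, 1.72 lower; 142 pairs lie below the solid line, and Dcx lies far below it.

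The series table sets the IPs against each other directly. Its log2 is wild type over knockout-labelled, so a positive value means more reads per depth in wild type. Its let-7 regions are all wild-type clusters, each with 3 or more wild-type reads, so places with few wild-type and many knockout-labelled reads are not in it. Summed over the 232 let-7 regions, 2014 knockout-labelled and 1775 wild-type reads were listed. The knockout-labelled sum can hold 1 read too many per region. The median log2 was 1.19, against 1.93 for the 8300 other 3' UTR regions and 2.77 for all regions. The 1.19 is the value that equal listed reads give when the knockout-labelled IP is 2.28 times as deep. At most 1 knockout-labelled read was listed in 12.1% of the let-7 regions, against 36.4% of the other 3' UTR regions and 50.2% of all regions. At 20 or more reads in both IPs together, the medians were 0.87 for 52 let-7 regions (quartiles 0.21 and 1.40) and 0.75 for 871 others (0.19 and 1.30), so the 2 sets overlapped at that depth.

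Past limits of 3 on the -log10 p and 1 on the log2, 12 of 232 let-7 regions were higher in wild type, or 5.17% (2.70 to 8.86). The share was 3.81% of all 3' UTR regions and 3.39% of all regions. At 10 or more reads in both IPs together, it was 9.09% of 132 let-7 regions against 10.8% of 2565 other 3' UTR regions. At 20 or more it was 13.5% of 52 against 13.7% of 871, so let-7 regions were not called more often at like reads. None of the 232 was lower in wild type at a log2 of -1 or less, where p was 2-sided and came from recovered reads. The background was 0% of all 3' UTR regions and 0.173% of all regions. After the log2 was centred on the median of all regions, 2.77, 3 of the 232 passed, and at limits of 5 and 2 it was 2. The 12 genes were Socs1, Clcn5, Wnt9a, Runx1t1, Chp1, Pld3, Slc12a9, BC052040, Aqp4, Adamts15, Nras and Zfp710.

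Socs1, an inhibitor of cytokine signalling through JAK kinases, had 2 knockout-labelled and 21 wild-type IP reads, a log2 of 4.58 (2.55 to 7.72) for wild type over knockout-labelled. No knockout-labelled cluster lay within 50 bases of it, while over the wild-type input it had 21 against at most 1 read. Clcn5, a chloride-proton exchanger, had 5 knockout-labelled and 17 wild-type reads, and Chp1, a calcineurin-like calcium-binding protein, 2 and 12. Wnt9a, a secreted Wnt ligand, had at most 1 knockout-labelled read and 11 wild-type reads at its 8mer. Runx1t1 passed as well, with 63 knockout-labelled and 59 wild-type reads in its wild-type region. Its log2 of 1.09 (0.56 to 1.63) was just over the limit but below the medians of the let-7 regions, 1.19, and of all regions, 2.77. Among regions of 20 or more reads in both IPs together, it was above the medians, 0.87 for let-7 and 0.75 for other 3' UTR regions. The rest of the 12 had 2 to 18 knockout-labelled and 10 to 26 wild-type reads.

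The log2 was below 0 in 23 of the 232 regions. The lowest, picked here after its value was seen, was Cbx5, with 32 knockout-labelled and 6 wild-type reads and a log2 of -1.23. Its -log10 p from the recovered reads was 1.14, short of the limit. Pias4 had 58 and 21 reads in its wild-type region, at a log2 of -0.28.

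**Figure D5:**
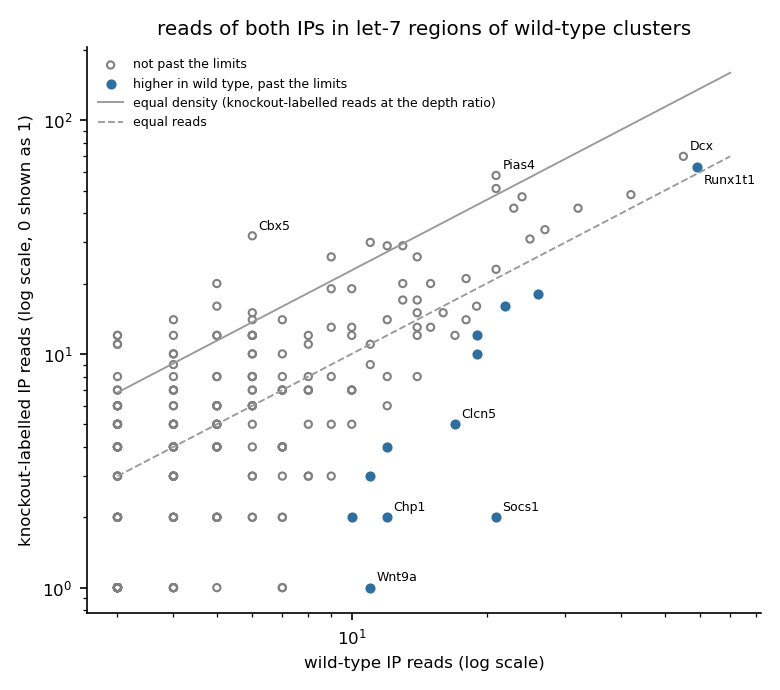
Knockout-labelled IP reads (vertical axis, log scale) against wild-type IP reads (horizontal axis, log scale) in the 232 let-7 regions of the series table; filled points are the 12 regions past the limits. The solid line marks equal density, where the knockout-labelled IP holds 2.28 times the wild-type reads, and the dashed line equal reads; Socs1, Wnt9a and Chp1 lie far below both lines and Cbx5 above.

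Enriched let-7 clusters that had no cluster called by the other library within 50 bases numbered 8 of 82 in the knockout-labelled library, or 9.76% (4.31 to 18.3), against 156 of 874 enriched 3' UTR clusters without a match, or 17.8% (15.4 to 20.6). In wild type they numbered 23 of 131, or 17.6% (11.5 to 25.2), against 1322 of 3051, or 43.3% (41.6 to 45.1). In the knockout-labelled library these were Kif21b, Slk, Dusp22, Dlgap4, Pip4k2b, Rnf7, Tusc2 and Yod1, with 9 to 13 IP reads each. In wild type they included Socs1 with 21, Chp1 with 12 and Wnt9a with 11 IP reads. No let-7 cluster had fewer than 3 IP reads. The series table listed 1 to 4 knockout-labelled reads at those 23 wild-type places, counts that can be 1 too high. A missing call thus does not show that reads were absent.

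Markers of 9 cell types were looked up among all clusters, of which the knockout-labelled library had 86106 and wild type 46860. Neuron markers had clusters in 8 of 8 cases in each library, with 120 clusters in the knockout-labelled library and 103 in wild type. Neural progenitor markers had them in 7 and 6 of 7 cases (36 and 16 clusters), astrocyte markers in 5 and 4 of 5 (16 and 7), and oligodendrocyte lineage markers in 6 and 2 of 6 (16 and 5). For markers of microglia it was 2 and 2 of 6 (4 and 3 clusters), of endothelial and mural cells 5 and 3 of 6 (9 and 5), and of erythroid cells 3 and 2 of 5 (3 and 4). For meninges and fibroblasts it was 2 and 2 of 5 (10 and 8 clusters), and for liver 1 and 2 of 4 (7 and 9). The liver clusters rest almost wholly on Ttr, with 7 in the knockout-labelled library and 8 in wild type. Alb had 0 and 1, and Afp and Apoa1 had 0 in both libraries. Whether cell makeup differed between the brains was not tested.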

How the data were processed

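AGO2 eCLIP reads of 2 IP and 2 input libraries enter through 3 deposited tables. Per the labels' protocols and the submitters' processing notes, reads were trimmed (cutadapt 1.15), freed of repeats and mapped to mm10 (STAR 2.6.0c), and clusters were called in each IP (CLIPper 1.4). The deposited values, made by the authors, are a -log10 p capped at 400 and a log2 ratio of read densities. In the IP files that ratio is IP over input, and in the series table wild-type over knockout-labelled IP. How the series table was made is not given in the sources used here. Wild type was taken as its numerator because its regions are those of the wild-type file.

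Reads were recovered from these scores: after a fixed depth term was taken off, log2 matched a quotient of whole read counts (the lower at most 1000) in 99.97% of knockout-labelled, 99.97% of wild-type and 99.96% of series regions, and p was met within 1%. All members had recovered reads. Counts of the denominator library can be 1 too high, as described for Igdcc4. A region was annotated by its midpoint (GENCODE vM21 basic), where coding sequence came before 3' UTR and 3' UTR before the rest. Region letters came from mm10, where 44485 of 44518 start codons read ATG. Intervals are exact binomial ones (scipy 1.17.1, Python 3.11.15), and PCR duplicates were removed by the authors. Recovery was tested on simulated reads made with the same assumptions, so that test could not show whether those assumptions hold for the deposited values.

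With 1 IP library per genotype there is no test across libraries. Members, gene lists and limits were chosen with earlier results of these data known. Genes named with values were the 10 highest enriched let-7 clusters per library, up to 12 enriched in both, the 5 highest of the series table, genes with 3 or more matches and up to 4 genes per list. Alternatives covered the window, the match, the annotation order, read minima, the limits, overlap and centring. The miR-124 family was not searched, since its sequence was not used here. Letters of some members and the values of 1 gene are not reported here.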

Additional observations from a re-analysis of the deposited data

How the results depend on the processing

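The cause of the changes given here was not tested. Of 53 alternative values, 36 lay within the exact interval of the main value and 17 outside it. The knockout-labelled share of enriched members was 33.9% with 8mers, 22.5% with 6mers, 90.1% with 10 or more IP reads, 11.4% at a -log10 p of 5 and a log2 of 4, and 45.3% at limits of 2 and 2. The wild-type share was 98.1% with 10 or more reads, 33.2% at limits of 5 and 4 and 94.8% at 2 and 2. In the runs of these settings the share stayed above that of 3' UTR clusters without a match, by 1.42 to 3.87 times in the knockout-labelled library and by 1.07 to 2.01 times in wild type. The share of let-7 series regions higher in wild type was 9.09% with 10 or more reads, against 10.8% of other 3' UTR regions. It was 0.862% at limits of 5 and 2 and 1.29% after centring on the median of all regions. Overlap with the other library was 45.0% of knockout-labelled members with 6mers, 88.9% with 10 or more reads and 72.0% for enriched clusters, and 54.5%, 90.4% and 39.7% of wild-type members. Merging abutting regions, chosen after seeing the data, moved none of the 5 results. No paired analysis was possible because each genotype has 1 IP library. Most members rest on few reads, with a median of 6 in the knockout-labelled library and 5 in wild type, so single members are imprecise.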
